A study of Mus musculus with 11 samples.

Results

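Collagen genes were taken as all rows of the FPKM table whose RefSeq accessions name a mouse gene of the form Col, a number, a, a number. There were 43 such rows, 1 per gene, of 23286 rows in all. Levels are in FPKM, a fragment count set relative to transcript length and to all mapped fragments, which lets genes be compared with each other. Of the 43 rows, 27 reached 1 FPKM in at least 1 group and were compared between groups, 15 stayed below it in all groups, and Col1a1 (chr11:94936270-94951856), the α1 chain of type I collagen, had a failed estimate in all 3 groups and is only named here.

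The cells were MEPMs, primary cultures of palatal mesenchyme cells from the embryonic mouse palate at E13.5, kept in 10% FBS and then overnight in 0.1% FBS, and their polyA RNA was sequenced. FGF1 cells (3 libraries) were given 50 ng/mL FGF1 together with heparin at 1 µg/mL for 1 h. PDGFA cells (4 libraries) were given 30 ng/mL PDGFA for 1 h, and starved cells (4 libraries) had no ligand. Mouse strain, genotype and litter are not given in the labels, and heparin was given only with FGF1, so that effects of the ligand and of heparin cannot be told apart. Each group was represented by 1 FPKM value, the authors' estimate over its libraries, with a deposited lower and upper bound, printed below in brackets. No value per library was used, so no SD, replicate test or p-value stands behind any comparison. Calls of higher or lower were made where the intervals of both groups did not touch and each value lay inside its own interval. Sequencing depth was unknown.

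Collagens are secreted proteins whose chains wind into a triple helix, which requires glycine, the smallest amino acid, at regular short spacing along each chain. Fibrillar collagens form the banded fibrils of connective tissue, type IV forms the sheet of basement membranes, type VI forms beaded filaments around cells, and fibril-associated collagens decorate fibril surfaces. In the palate, mesenchymal cells lay down this matrix while the shelves grow, rise and fuse. Collagen chains are modified, folded and cross-linked by a dedicated set of enzymes.

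The feature that unites these genes is visible in their coding sequence. In each of the 27 compared genes the longest uninterrupted run with a glycine codon (GGN) in every codon triplet had between 23 and 344 repeats, with a median of 75. The runs were longest in the fibrillar chains, with 344 repeats in Col3a1, 339 in Col1a2, Col2a1 and Col5a2, and 338 in Col5a1 and Col11a1. Type IV chains had shorter runs, 40 in Col4a1 and 66 in Col4a2, and their helix is known for its interruptions. Shown are the first 90 bases of that longest run for 7 chains of 4 classes (fibrillar, type IV, type VI and short chain), from GENCODE M21 transcripts on GRCm38 and written 5′ to 3′ along the coding strand, with the glycine codons that set the repeat in capitals. They were chosen because the same GGN-rich code is GC-rich, and base composition comes back below beside the PDGFA values.
Col3a1: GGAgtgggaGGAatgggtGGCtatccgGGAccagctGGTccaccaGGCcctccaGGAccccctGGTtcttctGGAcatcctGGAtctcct
Col5a2: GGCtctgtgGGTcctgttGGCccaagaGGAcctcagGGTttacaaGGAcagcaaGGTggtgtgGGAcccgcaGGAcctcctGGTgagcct
Col2a1: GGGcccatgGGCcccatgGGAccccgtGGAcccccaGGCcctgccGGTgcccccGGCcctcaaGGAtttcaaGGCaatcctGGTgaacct
Col11a1: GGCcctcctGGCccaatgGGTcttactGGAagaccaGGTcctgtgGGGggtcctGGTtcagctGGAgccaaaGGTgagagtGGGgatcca
Col4a1: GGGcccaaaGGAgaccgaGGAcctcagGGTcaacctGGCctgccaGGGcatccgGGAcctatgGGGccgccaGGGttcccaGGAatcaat
Col6a2: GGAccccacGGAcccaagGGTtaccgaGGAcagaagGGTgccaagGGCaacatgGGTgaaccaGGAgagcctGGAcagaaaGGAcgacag
Col10a1: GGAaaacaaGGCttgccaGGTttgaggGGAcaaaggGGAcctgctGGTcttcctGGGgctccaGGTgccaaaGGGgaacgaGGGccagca
These stretches lie, introns included, within chr1:45323762-45325413 on the plus strand for Col3a1 and chr1:45422404-45426996 on the minus strand for Col5a2. Those of Col2a1 and Col11a1 lie within chr15:97996507-97997320 on the minus strand and chr3:114105402-114108325 on the plus strand. For Col4a1 the stretch lies within chr8:11212692-11213549 on the minus strand and for Col6a2 within chr10:76611948-76613290 on the minus strand. For Col10a1 it lies at chr10:34394928-34395017 on the plus strand. In the printed stretches the GC content was lowest at 61.1%, in Col6a2 and Col10a1, and highest at 70.0%, in Col2a1. Across the 27 genes the longest run had a higher GC content than the same transcript's noncoding sequence in all 27, with medians of 64.1% and 51.4%.

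Among the cell type markers, 9 of 10 palatal mesenchyme genes were compared, and the list summed to 417 FPKM in FGF1 cells, 439 in PDGFA cells and 446 in starved cells. Prrx1, a mesenchymal homeobox gene, had 228 FPKM in FGF1 cells, 206 in PDGFA cells and 233 in starved cells, whereas Tbx22 stayed under 0.1 FPKM in each group. Of the 9, 8 had a lower value with FGF1 than in starved cells, with a median log2 fold of −0.29. Over all 11702 compared rows, 5072 had a lower value with FGF1, and the median was 0.02. Of the 9 marker rows 0 were called, where 0.555% of all compared rows were called. Pdgfra, a PDGF receptor gene chosen after its values were seen, had the lowest fold, with 2.46 [1.58 to 3.34] FPKM in FGF1 cells and 3.87 [2.95 to 4.79] in starved cells. Epithelial genes summed to 4.72, 5.85 and 3.54 FPKM, endothelial genes to 3.78, 4.28 and 3.59 FPKM and blood genes to 0.169, 0.183 and 0.216 FPKM in FGF1, PDGFA and starved cells. The 8 skeletal muscle genes summed to 30.9 FPKM in FGF1 cells, 111 in PDGFA cells and 23.7 in starved cells, and 2 of the 6 compared (Acta1 and Actc1) were called higher with PDGFA than in starved cells, where 0.308% of all compared rows were called. Acta1, the skeletal actin gene, held most of the PDGFA sum at 87.5 FPKM. The myogenic factor Myod1 had 0.0439, 0.258 and 0.0712 FPKM in these groups. Bone markers summed to 39.0, 34.5 and 32.7 FPKM and markers of glia and neurons to 46.6, 51.2 and 38.8 FPKM in FGF1, PDGFA and starved cells. In both lists 0 rows were called, where 0.555% of all compared rows were called with FGF1, 0.308% with PDGFA and 0.12% between the ligands. Tie1 (endothelium) and Hba-a1 (blood) were listed at 0 in all groups.

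The starved cells expressed collagen genes over a wide range of levels, led by fibrillar chains. All 42 rows with a usable estimate summed to 6055 FPKM in FGF1 cells, 6489.7 in PDGFA cells and 6116 in starved cells, 1.46%, 1.55% and 1.58% of each table total. In bulk cultures, fewer cells making a transcript and less of it per cell cannot be told apart. Of the 42 rows, 8 reached 100 FPKM in FGF1 cells, 9 in PDGFA cells and 8 in starved cells, and 18 reached 10 FPKM in each group. The 10 fibrillar genes with an estimate held 4415 FPKM in FGF1 cells, 4833 in PDGFA cells and 4432 in starved cells, against 630.5, 651 and 641 FPKM for the 6 type IV genes.

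Col1a2 (chr6:4505697-4541543), the α2 chain of type I collagen, was the most abundant collagen row, with 1986 [1064 to 2907] FPKM in FGF1 cells, 2405 [1794 to 3017] in PDGFA cells and 2025 [667 to 3384] in starved cells. It ranked 8th of the 11702 compared rows in starved cells. Col5a2 (chr1:45374331-45503282), a type V chain that helps to start and size fibrils, had 954 [545 to 1363] FPKM in FGF1 cells, 864 [302 to 1427] in PDGFA cells and 922 [482 to 1361] in starved cells. Col3a1 (chr1:45311538-45349706), which makes type III collagen and forms mixed fibrils with type I, had 773 [461 to 1086] FPKM in FGF1 cells, 903 [723 to 1084] in PDGFA cells and 749.7 [604 to 896] in starved cells. Intervals of these 3 genes overlapped within FGF1 cells and within starved cells, so their order there was not resolved. Within PDGFA cells Col1a2 lay apart from both Col3a1 and Col5a2. The type V chain Col5a1 (chr2:27886425-28039510) had 349 [215 to 482] FPKM in FGF1 cells, 357 [137 to 576] in PDGFA cells and 374 [239 to 509] in starved cells. Col5a3 (chr9:20770050-20815034) had 17.2 [12.02 to 22.5] FPKM in FGF1 cells, 17.3 [9.63 to 24.97] in PDGFA cells and 19.6 [15.5 to 23.7] in starved cells. Col5a1 exceeded Col5a3 by 20.2-fold in FGF1 cells, 20.6-fold in PDGFA cells and 19.1-fold in starved cells, with intervals apart in each.

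The cartilage fibril chains were unevenly expressed. Col11a1 (chr3:114030540-114220326), whose product nucleates cartilage fibrils, had 247 [155 to 339] FPKM in FGF1 cells, 207 [95.9 to 319] in PDGFA cells and 258 [178 to 338] in starved cells. Its partner Col11a2 (chr17:34039437-34066242) had 1.37 [0.856 to 1.89] FPKM in FGF1 cells, 1.19 [0.510 to 1.87] in PDGFA cells and 1.37 [0.951 to 1.79] in starved cells, so that Col11a1 stood 179.7-fold, 174-fold and 188-fold above it in FGF1, PDGFA and starved cells. Col2a1 (chr15:97975602-98004724), the main collagen of cartilage and also the source of a type XI chain, had 79.9 [53.7 to 106] FPKM in FGF1 cells, 69.1 [34.4 to 104] in PDGFA cells and 74.9 [57.9 to 91.8] in starved cells. The chains of type IX collagen, which coats type II fibrils, stood at unlike levels. Col9a2 had 7.45 [4.90 to 10.01] FPKM in FGF1 cells, 8.12 [4.19 to 12.1] in PDGFA cells and 7.60 [5.58 to 9.60] in starved cells. Col9a3 had 1.90 [0.680 to 3.11] FPKM in FGF1 cells, 1.60 [0.188 to 3.02] in PDGFA cells and 1.80 [0.868 to 2.74] in starved cells, and 8.08% of its exon bases overlap the antisense gene Tcfl5. Col9a1 was under the limit for comparison, with 0.106 [0.0392 to 0.176] FPKM in FGF1 cells, 0.0837 [0.00980 to 0.167] in PDGFA cells and 0.130 [0.0588 to 0.206] in starved cells. Beside these, Acan, the large cartilage proteoglycan gene, had 0.831 FPKM in FGF1 cells, 0.938 in PDGFA cells and 0.961 in starved cells, and Sox9, the transcription factor of cartilage, 16.7 FPKM in FGF1 cells, 16.3 in PDGFA cells and 15.7 in starved cells. Of the 6 cartilage markers 3 were compared and 0 were called in any comparison. Of all compared rows, 0.555% were called with FGF1, 0.308% with PDGFA and 0.12% between the ligands.

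The type IV genes lie in 3 head-to-head pairs on the chromosomes. Col4a1 (chr8:11198423-11312826) and Col4a2 (chr8:11312829-11449287), which form the common basement membrane trimer, are transcribed away from each other. Their rows are separated by 2 bases, and the RefSeq promoter windows of the pair (GRCm38.p6) overlap over 78 bases at chr8:11312777-11312854. Col4a1 had 301 [191 to 411] FPKM in FGF1 cells, 305 [129 to 480.3] in PDGFA cells and 308 [212 to 403] in starved cells. Col4a2 had 253 [163 to 343] FPKM in FGF1 cells, 276 [114 to 439] in PDGFA cells and 260.5 [184 to 337] in starved cells. The level of Col4a1 over that of Col4a2 was 1.19 in FGF1 cells, 1.10 in PDGFA cells and 1.18 in starved cells, with overlapping intervals. Col4a3 and Col4a4, whose rows lie 71 bases apart, were low, with overlapping intervals, at 0.434 and 0.419 FPKM in FGF1 cells, 0.401 and 0.454 in PDGFA cells and 0.409 and 0.456 in starved cells. Col4a5 and Col4a6, neighbours on the X chromosome with 1342 bases between their rows, differed. Col4a5 (chrX:141475419-141689235) had 71.1 [47.6 to 94.7] FPKM in FGF1 cells, 63.7 [31.99 to 95.5] in PDGFA cells and 67.5 [52.3 to 82.8] in starved cells, and Col4a6 (chrX:141165403-141474076) 4.72 [3.20 to 6.23] FPKM in FGF1 cells, 4.79 [2.57 to 6.99] in PDGFA cells and 4.51 [3.48 to 5.53] in starved cells. The Col4a5 level was 15.1-fold, 13.3-fold and 14.99-fold that of Col4a6 in FGF1, PDGFA and starved cells, with intervals apart in each.

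Of the type VI chains, Col6a1, Col6a2 and Col6a3, which assemble 1 of each into a monomer, all 3 were expressed. Col6a1 (chr10:76708792-76726044) had 86.8 [59.2 to 114] FPKM in FGF1 cells, 119 [54.1 to 183] in PDGFA cells and 95.6 [73.2 to 118] in starved cells. Col6a2 (chr10:76595756-76623404) had 55.2 [37.98 to 72.4] FPKM in FGF1 cells, 88.3 [38.4 to 138] in PDGFA cells and 64.6 [50.01 to 79.1] in starved cells, and Col6a3 (chr1:90766860-90843971) 25.2 [17.1 to 33.3] FPKM in FGF1 cells, 37.6 [14.6 to 60.7] in PDGFA cells and 31.3 [24.1 to 38.5] in starved cells. Col6a1 was above Col6a3 by 3.44-fold in FGF1 cells, 3.16-fold in PDGFA cells and 3.05-fold in starved cells. The intervals lay apart in FGF1 and starved cells but not in PDGFA cells. The alternative chains Col6a4, Col6a5 and Col6a6 stayed under 1 FPKM in all groups. Col6a5 and Col6a6 share 4.05% and 4.90% of their 31-base words with other genes, chiefly each other.

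Col8a1 (chr16:57624256-57754737), a short chain of the hexagonal networks first known from the cornea, was the most abundant gene outside the fibrillar class, with 687 [415 to 960.2] FPKM in FGF1 cells, 620.1 [249.9 to 990.3] in PDGFA cells and 691 [430.1 to 950.3] in starved cells. Its partner Col8a2 (chr4:126286794-126314330) had 36.98 [24.9 to 49.1] FPKM in FGF1 cells, 41.8 [21.3 to 62.2] in PDGFA cells and 40.5 [31.2 to 49.8] in starved cells, with Col8a1 18.6-fold, 14.9-fold and 17.1-fold above it in FGF1, PDGFA and starved cells. The fibril-associated gene Col16a1 (chr4:130047840-130099277) had 43.1 [29.9 to 56.3] FPKM in FGF1 cells, 44.3 [23.7 to 64.7] in PDGFA cells and 43.9 [34.3 to 53.4] in starved cells. Col18a1 (chr10:77052179-77166530), a basement membrane collagen whose end fragment is endostatin, had 17.6 [12.2 to 23.1] FPKM in FGF1 cells, 16.8 [8.88 to 24.7] in PDGFA cells and 19.004 [15.039 to 22.97] in starved cells. Lower down stood Col27a1, Col7a1, the gene of the anchoring fibrils of skin, and Col14a1, with 7.69, 3.48 and 1.51 FPKM in starved cells; the Col7a1 row also carries the accession of a small RNA inside the gene, Mir711. A row on the Col12a1 locus (chr9:79598991-79718678, where RefSeq places Col12a1) carried an accession that neither name table held, and it stayed outside the 43. It had 484 [276 to 691] FPKM in FGF1 cells, 449 [153 to 745] in PDGFA cells and 544 [261 to 827] in starved cells.

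**Figure D1:**
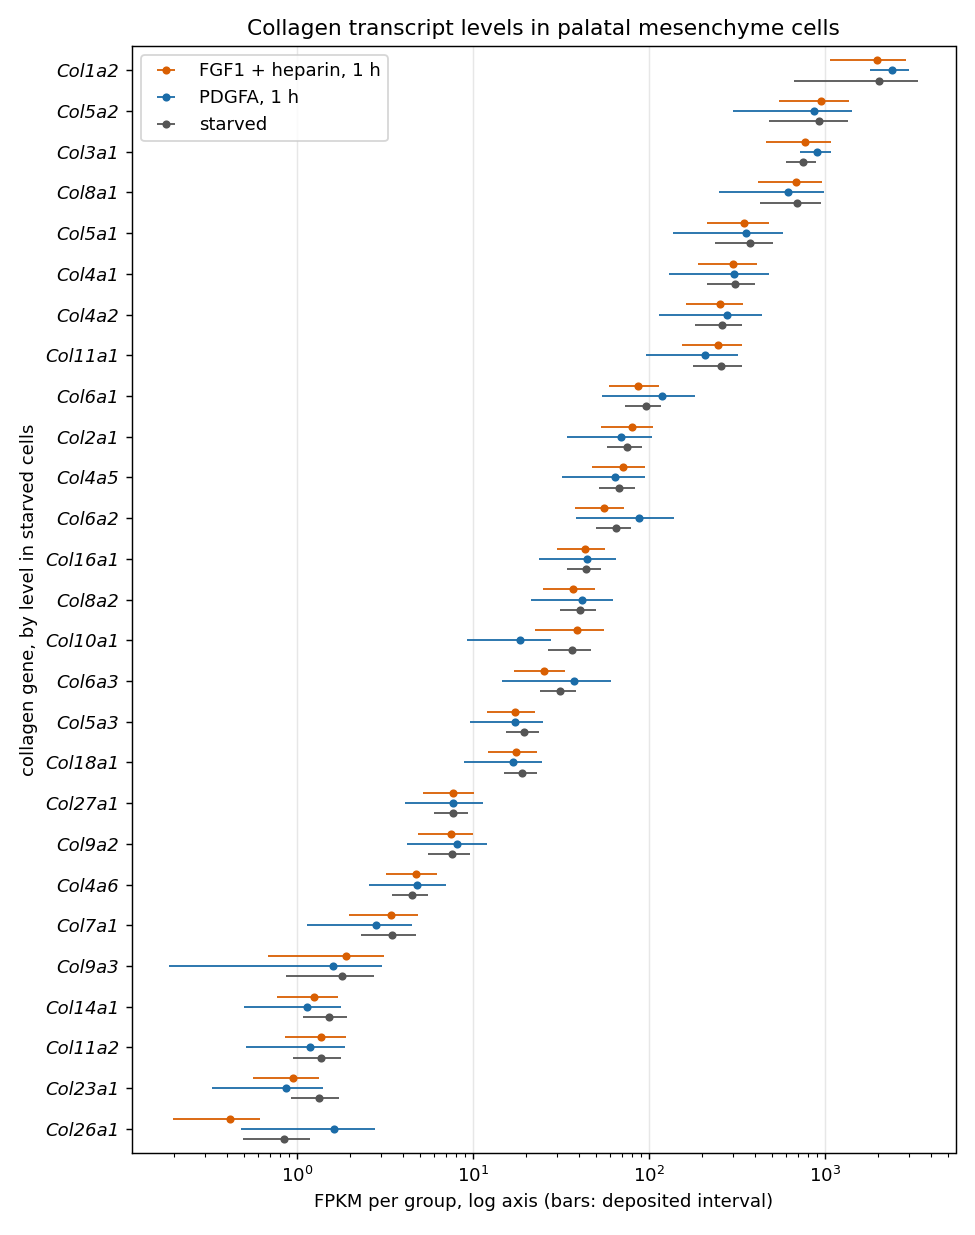
FPKM (log axis) of the 27 compared collagen genes, ordered by level in starved cells, with FGF1, PDGFA and starved cells as 3 points per gene and the deposited interval as a bar. Levels span Col1a2, at 2025 FPKM in starved cells, to Col26a1, at 0.841, and the 3 intervals of a gene overlap in every case, although those of Col10a1 in PDGFA and starved cells do so only at their edges.

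With the genes ordered by level within each group, neighbours mostly had overlapping intervals: 2 of 26 neighbour pairs lay apart in FGF1 cells, 1 of 26 in PDGFA cells and 4 of 26 in starved cells. In starved cells the breaks fell between Col11a1 and Col6a1, between Col6a3 and Col5a3, between Col18a1 and Col27a1 and between Col9a2 and Col4a6. The 15 rows under 1 FPKM had between 0.00258 and 0.642 FPKM in FGF1 cells, between 0.00168 and 0.636 in PDGFA cells and between 0.00103 and 0.675 in starved cells. These included Col13a1, Col15a1, Col17a1, Col19a1, Col20a1, Col22a1, Col24a1, Col25a1 and Col28a1. Nearest to the limit from below was Col28a1, with 0.642, 0.636 and 0.675 FPKM in FGF1, PDGFA and starved cells. From above it was Col23a1, with 0.947, 0.866 and 1.33 FPKM. Col23a1 passed only through its starved value and Col26a1 only through its PDGFA value.

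With 1 h of PDGFA, 0 of the 27 collagen genes were called higher or lower than in starved cells, where 0.308% of all 11702 compared rows were called. Those calls were 36 higher and 0 lower, so the lack of lower calls was shared by the whole table and says little about collagens. The median log2 fold of the collagen genes, on FPKM + 0.5, was −0.07, against −0.003 for all compared rows. With PDGFA 12 collagen genes had a higher value and 15 a lower value, against 5774 and 5925 of all compared rows. Without further scaling, the lower and upper quartiles of the collagen log2 folds were −0.16 and 0.09, against −0.14 and 0.16 for all compared rows. After quantile normalization, which forces the 3 groups to 1 distribution, 8 collagen genes were higher and 19 lower. The collagen median was then −0.17 and that of all compared rows −0.07. In the same cells Egr1, an immediate early transcription factor, was 4.37-fold higher, with 49.7 [23.6 to 75.7] FPKM in PDGFA cells and 11.4 [8.52 to 14.2] in starved cells. Fos, an AP-1 subunit, had 6.76 [3.07 to 10.4] FPKM in PDGFA cells and 2.62 [1.69 to 3.56] in starved cells and was not called.

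The precision behind this was limited. In PDGFA cells the deposited interval of the compared collagen genes had a median of 54.4% of the FPKM on each side, against 27.1% in starved cells. Taken at their extremes, the bounds excluded a 2-fold change in either direction for 1 of the 27 genes, Col3a1, whose ratio of PDGFA to starved cells was 1.205 and could lie within 0.807 to 1.79. Over all compared rows this share was 0.0256%. For the other 26 a 2-fold change was not excluded at this precision.

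The lowest fold with PDGFA was that of Col10a1, the collagen of hypertrophic cartilage, at −0.97 log2. It had 39.2 [22.5 to 55.9] FPKM in FGF1 cells, 18.5 [9.20 to 27.8] in PDGFA cells and 36.6 [26.7 to 46.6] in starved cells. The PDGFA value was the lowest of the 3, and its upper bound stood just above the lower bound of starved cells, so the row was not called. The bounds allow ratios of 0.198 to 1.04 for PDGFA against starved cells. After quantile normalization Col10a1 was the only collagen row called, as lower with PDGFA, where 0.632% of all compared rows were called lower. That share is 74 rows, against 0 called lower without this scaling. Col10a1 lies within the locus of Nt5dc1, which is transcribed from the opposite strand. The row's locus (chr10:34303612-34418528) spans both genes, 0.575% of Col10a1 exon bases overlap Nt5dc1 exons, and nothing in the sources used here says that strand was counted. Nt5dc1 itself had 3.11 [0 to 12.2] FPKM in FGF1 cells, 2.94 [0 to 6.81] in PDGFA cells and 2.89 [0 to 8.01] in starved cells. Its level was thus not resolved from 0 in any group.

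Col23a1, a transmembrane collagen, came next from below, with 0.866 [0.329 to 1.40] FPKM in PDGFA cells and 1.33 [0.921 to 1.74] in starved cells (log2 fold −0.42), followed by Col11a1 with a log2 fold of −0.31. Because Col23a1 reached 1 FPKM only in starved cells, the limit itself favours a low fold for it. At the other end stood Col26a1 (chr5:136741764-136883107), the type VI chains and the fibrillar chains Col3a1 and Col1a2. Col26a1 had 1.62 [0.479 to 2.76] FPKM in PDGFA cells and 0.841 [0.493 to 1.18] in starved cells, a log2 fold of 0.66 from values around 1 FPKM. Because Col26a1 reached 1 FPKM only in PDGFA cells, the limit favours a high fold for it. Col6a2 had a PDGFA value 1.37-fold that of starved cells, Col6a1 1.24-fold and Col6a3 1.202-fold, and the intervals of all 3 overlapped. Among them in size were Col3a1, at 1.205-fold, and Col1a2, at 1.19-fold, neither of them called. Under quantile normalization the log2 fold of Col1a2 was −0.07 in place of 0.25. The values of Col3a1 and of the 3 type VI chains stayed higher under both other scalings. The row on the Col12a1 locus was 0.826-fold its starved value. The skeletal muscle genes whose sum was larger in PDGFA cells do not include collagens, and their part in the collagen values was not tested.

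With 1 h of FGF1 and heparin, 0 of the 27 collagen genes were called against starved cells, where 0.555% of all compared rows were called. Those calls over all rows were 63 higher and 2 lower. The median log2 fold of the collagen genes was −0.03, against 0.02 for all compared rows. With FGF1 8 collagen genes had a higher and 19 a lower value, against 6548 and 5072 of all compared rows. The lower and upper quartiles of the collagen log2 folds were −0.13 and 0.02, against −0.07 and 0.10 for all compared rows. The intervals were narrower than with PDGFA, with a median of 36.6% of the FPKM on each side, and the bounds excluded a 2-fold change in either direction for 10 of the 27 genes, or 37.0%, against 43.6% of all compared rows. Egr1 was 10.2-fold higher in the same cells, with 116 [76.7 to 155] FPKM in FGF1 cells and 11.4 [8.52 to 14.2] in starved cells, and Fos was 3.90-fold higher.

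The 9 compared fibrillar chains stood with FGF1 between 0.880-fold (Col5a3) and 1.07-fold (Col2a1) of the starved value, with Col1a2 at 0.981-fold, Col3a1 at 1.03-fold and Col5a1 at 0.932-fold. The 4 compared type IV chains stood between 0.971-fold (Col4a2) and 1.05-fold (Col4a5). The highest folds were those of Col10a1 (0.10 log2), Col2a1 (0.09) and Col4a5 (0.07). Lowest was Col26a1, with 0.414 [0.197 to 0.619] FPKM in FGF1 cells and 0.841 [0.493 to 1.18] in starved cells and a log2 fold of −0.55. Both of these values were under 1 FPKM, and Col26a1 was compared only through its PDGFA value. Col23a1 had 0.947 [0.565 to 1.33] FPKM in FGF1 cells and 1.33 [0.921 to 1.74] in starved cells, a log2 fold of −0.34. That row reached 1 FPKM only in starved cells, which favours a low fold. The 3 type VI chains had lower values with FGF1: Col6a3 was at 0.806-fold, Col6a2 at 0.854-fold and Col6a1 at 0.909-fold of the starved value, with overlapping intervals. Most palatal mesenchyme markers also had lower values with FGF1, as given above, and their part in the collagen values was not tested.

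**Figure D2:**
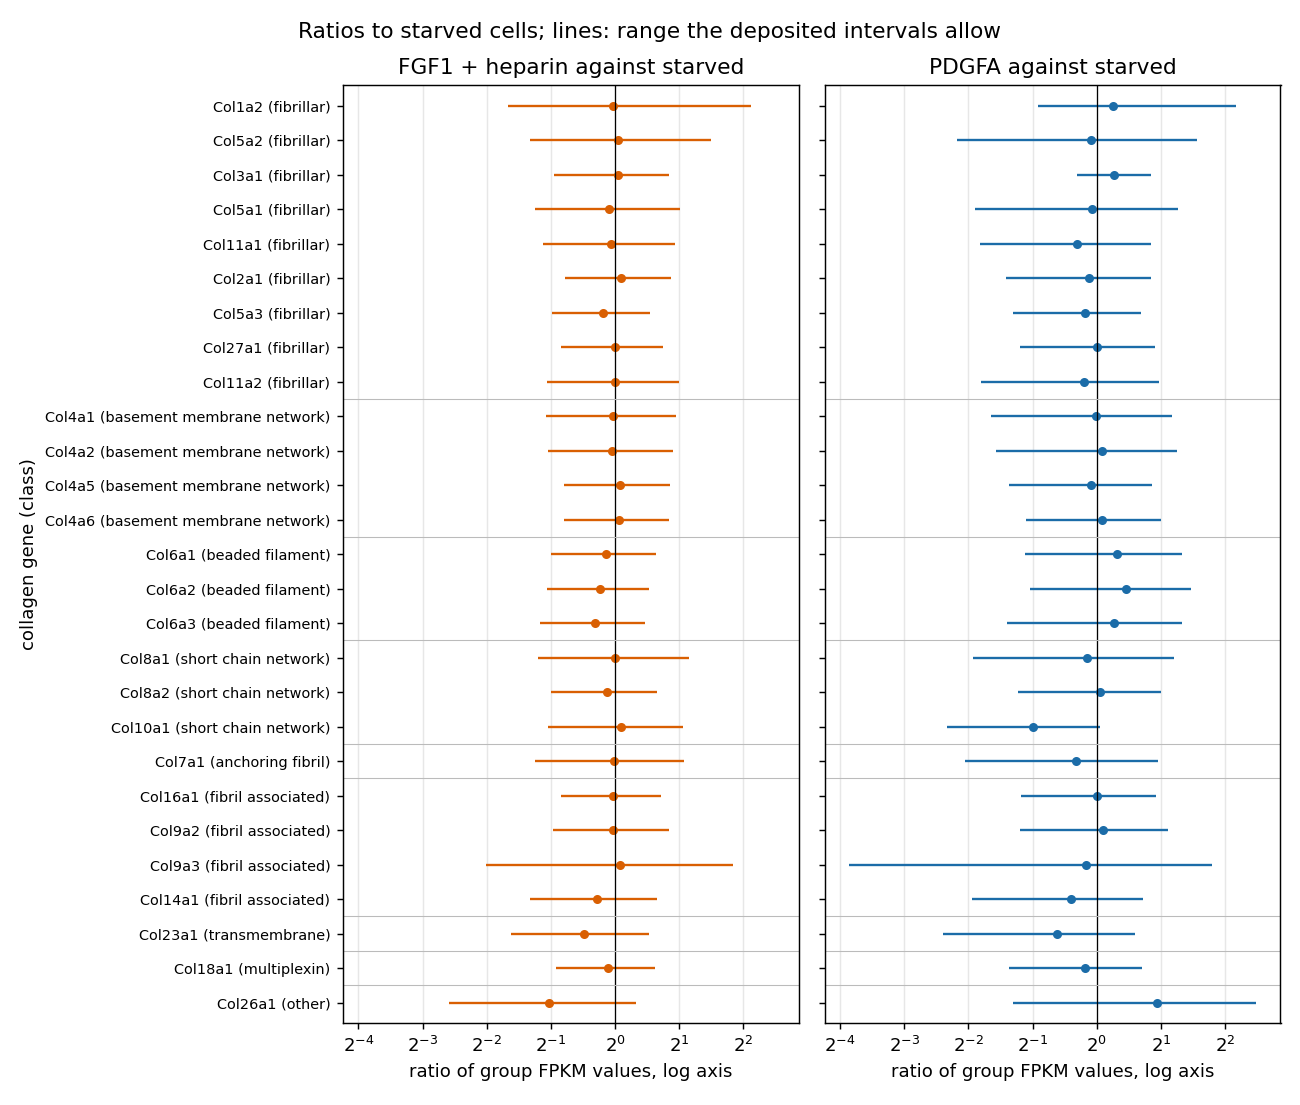
Ratio of FGF1 to starved cells (left) and of PDGFA to starved cells (right) on a log axis for the 27 compared collagen genes grouped by class; lines run from the lowest to the highest ratio the deposited intervals allow. All lines cross 1, and the line of Col3a1 with PDGFA is short because both of its intervals are narrow.

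Set against each other, 0 of the 27 collagen genes were called between FGF1 and PDGFA cells, where 0.12% of all compared rows were called. The median log2 fold of FGF1 over PDGFA was −0.01, against 0.01 for all compared rows. With FGF1 12 collagen genes were higher and 15 lower, against 6208 and 5490 of all compared rows. With quantile normalization 16 collagen genes were higher and 11 lower, the collagen median was 0.02 and that of all compared rows 0.05. Both earlier comparisons share the starved cells, so the ligands are best read side by side from their own values. Col26a1 had 0.414 [0.197 to 0.619] FPKM with FGF1 and 1.62 [0.479 to 2.76] with PDGFA, the lowest log2 fold at −1.21. It was compared only through its PDGFA value, which favours a low fold here. Next were Col6a2, at 0.625-fold, and Col6a3, at 0.671-fold of the PDGFA value, with Col6a1 at 0.731-fold. At the upper end Col10a1 had 39.2 [22.5 to 55.9] FPKM with FGF1 and 18.5 [9.20 to 27.8] with PDGFA, so that the ratio was 2.12 and the intervals overlapped. Col7a1 and Col11a1 followed, at 1.23-fold and 1.19-fold. The bounds excluded a 2-fold difference between ligands for 0 of the 27 genes, and for 0.0256% of all compared rows.

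Collagen transcripts are rich in G and C, and PDGFA values followed base composition across the table. The 27 compared genes had transcripts of 46.8% to 62.9% GC with a median of 58.0%, against 50.3% for 11469 compared rows of at least 200 nt, and 24 of the 27 were above that second median. Over those 11469 rows the log2 fold of PDGFA against starved cells rose with GC content (Spearman 0.606, across rows that share their libraries). Among the 27 collagen genes the same correlation was 0.191. After removal of a regression on GC content, transcript length and level, the median collagen log2 fold with PDGFA was −0.25, with 7 of 27 genes above 0, against −0.008 and 5515 of 11469 for all rows; still 0 collagen genes were called. Col2a1, at 62.2% GC, had a log2 fold of −0.12 before and −0.47 after the trend was removed. Col6a2, at 59.8% GC, had 0.45 before and 0.15 after, and Col10a1, at 50.5% GC, −0.97 before and −0.99 after.

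With FGF1 the correlation of log2 fold and GC content was 0.182 over all rows and −0.113 over collagen genes, and the collagen median with the trend removed was −0.11. Between the ligands it became 0.13 in place of −0.01, with 20 of 27 genes above 0, so the direction of that median depended on the correction.

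**Figure D3:**
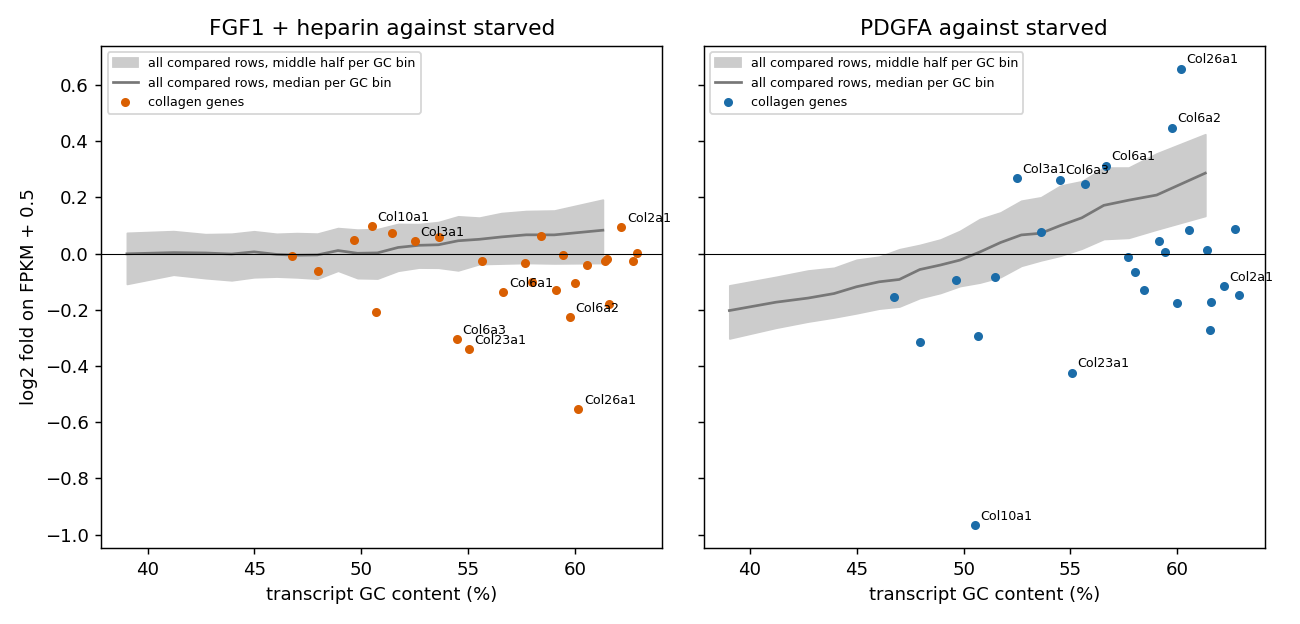
Log2 fold on FPKM + 0.5 against transcript GC content (percent) for the 27 collagen genes (points), with FGF1 against starved cells on the left and PDGFA on the right; the grey line and band are the median and the quartiles of all compared rows in bins of GC content. With PDGFA the grey line climbs with GC content. The fitted trend on GC content, length and level is not drawn. With PDGFA 20 of the 27 collagen genes had a value below that fitted trend, while Col26a1, Col3a1, Col6a2, Col6a3, Col1a2, Col6a1 and Col4a6 had values above it.

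The genes that process collagen included several very abundant transcripts. Of 37 genes for hydroxylation, folding, export, trimming and cross-linking, 34 were compared, and 0 were called in any of the 3 comparisons. Of all compared rows, 0.555% were called with FGF1, 0.308% with PDGFA and 0.12% between the ligands. With shares this small, 0 calls say little about the list. Their median log2 fold was 0.07 with FGF1, 0.10 with PDGFA and 0.0007 for FGF1 against PDGFA. Serpinh1, the collagen chaperone HSP47, had 1612 [956 to 2268] FPKM in FGF1 cells, 1992 [503 to 3483] in PDGFA cells and 1442 [919 to 1966] in starved cells. Lox, which cross-links collagen and elastin, had 1226 [739 to 1709.9] FPKM in FGF1 cells, 1059.8 [422 to 1696] in PDGFA cells and 1074 [660.0 to 1490.0] in starved cells. P4hb, a subunit of prolyl hydroxylase, and Pcolce, an enhancer of procollagen trimming, had 490.4 and 388 FPKM in FGF1 cells, 487 and 412 in PDGFA cells and 493 and 362 in starved cells. Plod3, a lysyl hydroxylase named after its values were seen, had the largest fold of the list with FGF1, with 148 [66.5 to 214] FPKM in FGF1 cells and 82.5 [63.7 to 101] in starved cells, and those intervals overlapped.

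Of 12 collagen receptors 11 had a row, 6 were compared and 0 were called. Here too 0 calls say little, since the shares over all compared rows were 0.555% with FGF1, 0.308% with PDGFA and 0.12% between the ligands. Itgb1, the β1 integrin subunit shared by the collagen-binding integrins, had 592 FPKM in FGF1 cells, 492 in PDGFA cells and 543 in starved cells. Ddr2 and Ddr1, receptor tyrosine kinases that bind collagen, had 71.8 and 52.4 FPKM in FGF1 cells, 63.2 and 56.2 in PDGFA cells and 73.2 and 48.2 in starved cells. Mrc2, an uptake receptor for collagen, had 63.1 FPKM in FGF1 cells, 66.9 in PDGFA cells and 66.5 in starved cells.

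Transcription factors known to act on collagen genes were the only part of the pathway with calls. Of 22 such factors 20 were compared, and 3 were called higher with FGF1 and 3 with PDGFA, in each case Egr1, Egr2 and Cebpb, where 0.555% of all compared rows were called with FGF1 and 0.308% with PDGFA. The list was chosen with earlier results of these data known, so these counts are no independent evidence. Egr2 had 12.02 [7.86 to 16.2] FPKM in FGF1 cells, 7.96 [3.40 to 12.5] in PDGFA cells and 0.519 [0.283 to 0.745] in starved cells. Cebpb, a factor of inflammatory and fat cell genes, had 26.7 [16.5 to 36.6] FPKM in FGF1 cells, 41.8 [17.2 to 66.3] in PDGFA cells and 12.4 [8.41 to 16.2] in starved cells, and its calls with both ligands ended when the trend on GC content, length and level was removed. Its call with FGF1 also ended under quantile normalization. Egr1 was also called higher with FGF1 than with PDGFA, a call that ended with median-of-ratios scaling. The other 17 were not called in any comparison, among them Prrx1, Ybx1, with 252 FPKM in FGF1 cells, 207 in PDGFA cells and 219 in starved cells, and Twist1, with 62.4 FPKM in FGF1 cells, 94.4 in PDGFA cells and 60.1 in starved cells. The tendon factor Scx, also among them, had 42.3 [8.59 to 75.9] FPKM in FGF1 cells, 48.3 [0.454 to 107] in PDGFA cells and 34.8 [14.3 to 55.3] in starved cells. These intervals are wide, and its level was poorly resolved. The median log2 fold of the 20 factors was 0.05 with FGF1 and −0.03 with PDGFA.

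**Figure D4:**
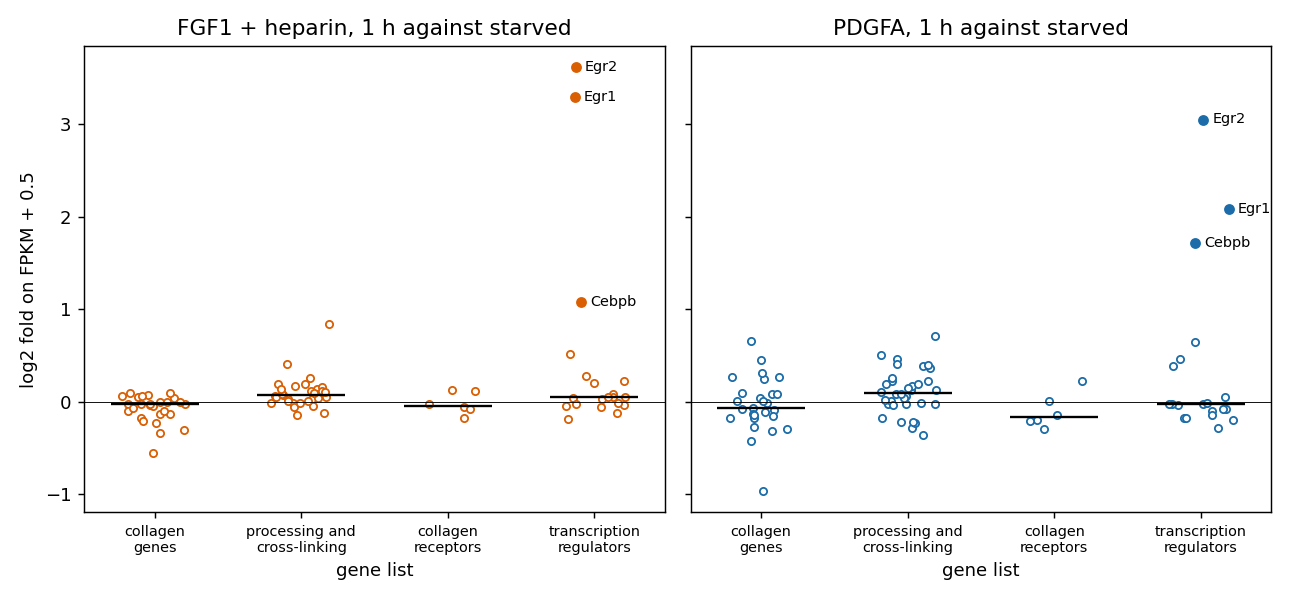
Log2 fold on FPKM + 0.5 of FGF1 (left) and PDGFA (right) against starved cells for the 27 collagen genes and the compared members of the 3 other lists; filled, named points are rows whose intervals lay apart, open points are the rest, and black bars are list medians. Egr1, Egr2 and Cebpb stand alone above 1, and the collagen points lie around 0.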

How the data were processed

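Polyadenylated RNA of palatal mesenchyme cells was sequenced in 11 libraries, 4 starved, 4 given PDGFA and 3 given FGF1 with heparin. The authors deposited 1 FPKM per group and row between 2 deposited bounds, per the file headers, whose confidence level is not stated. The tools were Cuffdiff, TopHat and CASAVA and the build was mm10, per the submitters' processing notes; for tool versions, annotation, strand and reads with several matches, no source used here gives the setting. Because FPKM is relative to the library total, 1 gene's value also depends on the rest. Depth is unknown, and values per library were not used, so nothing here measures the spread between cultures or animals.

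Symbols came from RefSeq (GRCm38.p6) for 22992 rows and from GENCODE M21 for 126 others, leaving 168 unnamed. Locus positions are printed 1-based. Rows with 1 FPKM or more in a group and no failed estimate were compared (11702; 2 rows had failed estimates). A row was called when its intervals lay apart and each value lay inside its own interval. Log2 folds use FPKM + 0.5, which understates changes of low genes. GC content, length and codon runs came from the GENCODE transcript matched to each row. The trend was a robust cubic regression. The code for calls and trend was run on simulated folds with a GC effect put in. That run does not measure how well changes as small as most collagen folds are called, nor the spread between libraries. The members and lists were chosen with earlier results of these data known. Genes named were those of 10 FPKM or more in starved cells, the 3 highest and 3 lowest folds per comparison, the chains of types IV, V, VI and IX, called rows and up to 4 of the most abundant per other list; the genes named beyond it were added after their values were seen. Regressions used statsmodels 0.14.6 and scipy 1.17.1, tables pandas 2.3.3 and numpy 2.4.6, and plots matplotlib 3.10.9, under Python 3.11.15. The replicate fits and left-out libraries planned at the start could not be made from group values.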

Additional observations from a re-analysis of the deposited data

How the results depend on the processing

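No paired analysis was possible because the table holds 1 value per group and none per library, and for the same reason no replicate could be left out in turn. Of 93 recomputed counts and medians 88 stayed close to the values above (a count within 1.5 times, a median within 0.1 log2) under other pseudocounts (0.1 and 1 FPKM), no minimum or a minimum of 5 FPKM, median-of-ratios and quantile scaling, the removed trend, a fold of at least 1.5, values allowed outside their interval, and, added after the data were seen, the row on the Col12a1 locus counted as a member. Many of those 88 were counts of 0 that stayed 0, which says little where so few rows of the whole table were called. Regulator counts that fell from 3 to 2 were also taken as close. Quantile normalization called 1 collagen row with PDGFA (Col10a1) in place of 0, and moved the median collagen log2 fold with FGF1 to −0.1292. It also gave 16 genes higher and 11 lower for FGF1 against PDGFA, in place of 12 and 15, and 8 higher and 19 lower for PDGFA against starved cells. With the trend on GC content, length and level removed, the collagen medians became −0.2506 for PDGFA against starved cells and 0.1316 for FGF1 against PDGFA. Median-of-ratios scaling left 0 regulator rows called between ligands in place of 1 (Egr1). The causes were not tested. The width of the deposited intervals limits all comparisons most in PDGFA cells.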
